A study of Homo sapiens with 6 samples.

Results

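The proteasome genes were taken as every gene of the deposited table named PSMA, PSMB, PSMC, PSMD, PSME, PSMF or PSMG followed by a number, together with POMP, with pseudogenes left out. This gave 47 of 35009 genes, and all 47 had enough counts to be tested. They divide into 14 subunits of the constitutive core, the 3 immunoproteasome subunits PSMB8, PSMB9 and PSMB10, 17 subunits of the 19S regulatory cap, 5 activators or regulators and 8 assembly chaperones. PSMA8 (a testis form of an alpha subunit) and PSMB11 (a thymus form of a beta subunit) were not analysed here. All samples were macrophages grown from the human leukaemia line THP-1, which resembles monocytes, and all had been given ox-LDL, an oxidised lipoprotein whose uptake turns macrophages into foam cells. The 3 control libraries carry no change to MCT4 in their labels, and the 3 siMCT4 libraries are labelled as deficient in MCT4, the lactate exporter encoded by SLC16A3. The labels do not say whether the controls received another siRNA, so loss of MCT4 cannot be told apart from the siRNA itself. They also do not say that the libraries came from separate cultures, so each p-value speaks only to the spread among these 6 libraries.

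The proteasome degrades proteins tagged with ubiquitin. Its barrel-shaped core is built of stacked rings of alpha and beta subunits, and caps or activators at the ends of the barrel open the gate formed by the alpha rings. Under interferon the catalytic beta subunits PSMB5, PSMB6 and PSMB7 are replaced in newly built cores by PSMB8, PSMB9 and PSMB10, which changes the peptides that macrophages present on MHC class I.

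SLC16A3 stood at 115, 101 and 108 CPM in the controls and 10.8, 11.05 and 13.4 CPM in siMCT4, a log2 change of -3.20. CPM values here are counts scaled to the library total and by TMM, the trimmed mean method of edgeR. An exact two-sided permutation test over the 20 assignments of its 6 FPKM values gave p = 0.1, the smallest it allows. Library totals ran from 61880619 to 69181938 counts. Macrophage markers (6 of 8 at an FPKM, the deposited value per gene length and depth, of 1 or more) summed to an FPKM of 846 to 877 in the controls and 719 to 798 in siMCT4. The summed FPKM stayed at or under 0.013 for T cell markers, of which 1 of 4 was listed, and at or under 1.16 for epithelial markers. It reached at most 0.725 in controls and 2.44 in siMCT4 for B cell markers, and 0.704 and 3.29 for fibroblast markers. Endothelial markers, 2 of which reached an FPKM of 1, summed to 72.0 to 75.5 in controls and 43.7 to 45.1 in siMCT4. Whether these shifts have a part in the proteasome values was not tested.

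One library stood apart, over all genes as well as in this family. Counts of siMCT4 library 3 differed from those of libraries 1 and 2 with a chi-square per degree of freedom of 53.6 and 61.3, where libraries 1 and 2 differed with 9.13 and the controls with 12.7 to 17.5. In siMCT4 library 3, 39 of the 47 members (83.0%) had their lowest CPM of the 3 siMCT4 libraries, including all 14 constitutive core genes. Among all tested genes 40.6% were lowest there. Against the control mean, the members' median log2 ratio was 0.25 in siMCT4 library 1, 0.23 in library 2 and -0.02 in library 3. In the same libraries, the 1329 expressed genes with a transcript GC content of at least 60% had median log2 ratios of -0.53, -0.56 and -0.17. The members' GC content ran from 32.0% to 60.1%, with a median of 47.9% against 48.3% for all tested genes. Counts of members are therefore given with all 6 libraries, without siMCT4 library 3, and with that library alone against the controls.

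**Figure D1:**
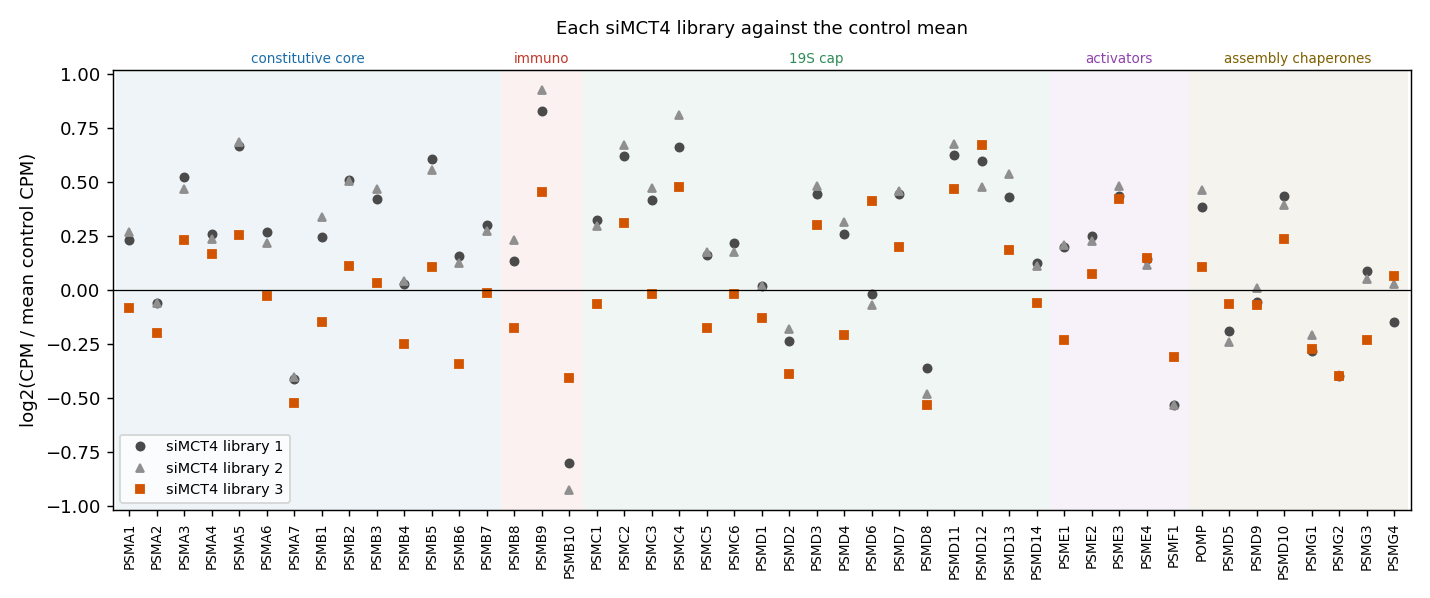
Log2 ratio of the CPM in each siMCT4 library to the mean CPM of the 3 controls (vertical axis) for the 47 proteasome genes (horizontal axis), grouped by role. Orange squares, siMCT4 library 3, lie lowest in 39 genes, and their median is -0.02 against 0.25 and 0.23 for libraries 1 and 2.

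Proteasome genes moved in both directions in siMCT4, more of them upward. With all libraries, 17 of 47 were called higher (36.2%) and 6 lower (12.8%), and 24 were not called (edgeR quasi-likelihood test, Benjamini-Hochberg adjusted p under 0.05 over 19944 genes). Of all tested genes, 20.6% were called higher and 20.8% lower. The median log2 change was 0.15 over the members and -0.01 over all tested genes. The 17 rises ran from 0.13 in PSME4 to 0.75 in PSMB9, and the 6 falls ran from -0.27 in PSMD2 to -0.69 in PSMB10. In 14 members every siMCT4 library lay above every control and in 7 every one lay below, where 27.2% and 27.8% of all tested genes did so.

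The upward share of the family depended on library 3. Without it 30 members were called higher and 6 lower, against a background of 23.5% and 23.1% of genes. With library 3 as the sole siMCT4 library 11 were higher and 6 lower, against 15% and 16.2%, and the members' median log2 change was -0.0015. In limma on log2(FPKM + 1), which changes the test, the unit and the filter together, 19 members were higher and 5 lower, with a median of 0.04 over all genes and 59.3% of all calls higher, against 49.8% with edgeR and TMM. When limma was run on TPM, in which the length-corrected values of every library share one total, 24 members were higher and 2 lower. The median was then 0.34 over the members and 0.13 over all genes, with 68.6% of all calls higher. With limma on log2(FPKM + 0.1) that share was 60.4%. In edgeR with a correction for transcript GC content, 18 members were higher and 6 lower, where 4303 and 3978 of 19944 genes were. The median was then 0.0995 over the members and 0.0283 over all genes, against 0.147 and -0.0064 without the correction. In bulk RNA, fewer cells of a type and less RNA per cell cannot be told apart.

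**Figure D2:**
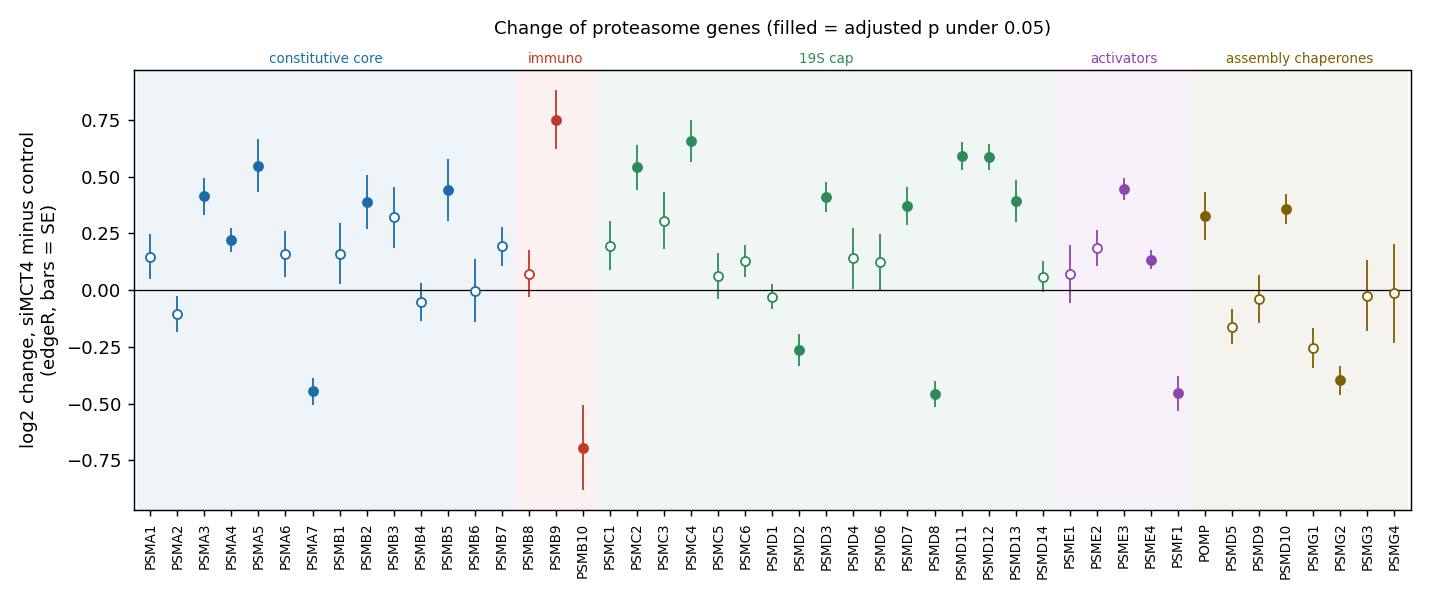
Log2 change of siMCT4 against control (vertical axis, bars are the standard error from edgeR) for each of the 47 proteasome genes, grouped by role. Filled points have an adjusted p under 0.05, 17 above and 6 below the line at 0, and PSMB9 and PSMB10 mark the highest and the lowest change.

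The 3 immunoproteasome subunits did not move together. PSMB9 rose, PSMB10 was called lower, and PSMB8, the most abundant of them, was not called. PSMB8 (ENSG00000204264, chr6:32840717-32844047, minus strand) and PSMB9 (ENSG00000240065, chr6:32844136-32859851, plus strand) lie 88 bases apart by their gene spans in the MHC class II region, while PSMB10 (ENSG00000205220, chr16:67934506-67936847, minus strand) lies elsewhere, all on GRCh38 as in the deposited table.

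The upstream sequence of these genes is shown because interferon-responsive factors bind elements there, and because PSMB9 shares its promoter region with TAP1, the peptide transporter gene that faces it. By RefSeq (GRCh38.p14) TAP1 has 2 starts, and the one used here lies 488 bases from the start of PSMB9, head to head. The deposited table's span of PSMB9 begins upstream of the RefSeq start of PSMB9, at 32844136 against 32854192. Its closeness to PSMB8 and its overlap with TAP1 hold for that longer span. Windows from 250 bases before to 50 after each RefSeq start were searched on both strands for GAAA, any 2 bases and again GAAA (called ISRE-like, after the interferon-stimulated response element), TTCNNNGAA (GAS-like, after the gamma-interferon activation site) and TGACNNNGC (antioxidant-response-like). PSMB8 and TAP1 had 2 windows each, and for both the window with an ISRE-like match is shown. The other TAP1 window held a GAS-like match. Each stretch runs 5′ to 3′ on the gene's own strand, and capitals mark a match on either strand.
PSMB8 (chr6:32844038-32844167, minus strand, ISRE-like and GAS-like): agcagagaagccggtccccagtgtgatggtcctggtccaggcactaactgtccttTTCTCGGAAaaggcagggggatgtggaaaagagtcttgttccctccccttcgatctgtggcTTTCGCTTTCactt
PSMB9 (chr6:32854012-32854191, plus strand, antioxidant-response-like): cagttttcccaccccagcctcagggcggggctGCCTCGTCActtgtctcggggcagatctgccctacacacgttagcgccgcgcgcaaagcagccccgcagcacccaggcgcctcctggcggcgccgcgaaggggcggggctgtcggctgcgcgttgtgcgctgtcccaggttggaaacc
TAP1 (chr6:32853705-32853884, minus strand, overlapping ISRE-like matches): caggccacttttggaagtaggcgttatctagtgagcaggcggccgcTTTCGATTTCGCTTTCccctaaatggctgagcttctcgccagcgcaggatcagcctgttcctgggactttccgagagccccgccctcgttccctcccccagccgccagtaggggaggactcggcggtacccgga
PSMB10 (chr16:67936851-67936970, minus strand, ISRE-like): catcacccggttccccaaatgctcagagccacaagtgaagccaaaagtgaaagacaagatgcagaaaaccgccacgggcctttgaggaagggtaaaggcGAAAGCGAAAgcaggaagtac
PSME2 (chr14:24146611-24146730, minus strand, ISRE-like): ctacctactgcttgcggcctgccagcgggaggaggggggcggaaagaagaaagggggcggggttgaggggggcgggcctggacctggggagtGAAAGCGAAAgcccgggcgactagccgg
PSMB4 (chr1:151399453-151399572, plus strand, ISRE-like): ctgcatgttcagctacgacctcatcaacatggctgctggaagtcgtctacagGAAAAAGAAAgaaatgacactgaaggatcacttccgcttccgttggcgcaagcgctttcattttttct
The PSMB8 and PSMB10 windows hold the same letters, GAAAGCGAAA, on opposite strands, and PSME2 holds them too. The TAP1 stretch holds these letters as well, written as in PSMB8. PSMB4, a constitutive core gene, is printed for contrast, with a different match at -68 to -59 from its start.

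PSMB9 (also LMP2, the counterpart of PSMB6) had 21.5, 25.2 and 25.0 CPM in the controls and 42.5, 45.4 and 32.8 CPM in siMCT4. All 3 siMCT4 libraries lay above the controls, with library 3 the closest to them. The log2 change was 0.75 ± 0.131 (SE; edgeR adjusted p = 0.00306), and it was called in all 18 alternatives, with adjusted p from 6.65e-08 to 0.0161. TAP1, which by the deposited spans overlaps PSMB9 on the opposite strand, and which holds 628% of its counts, rose as well (0.91, edgeR adjusted p = 6.52e-06). PSMB8-AS1, on the strand of PSMB9 and with 24.1% of its counts, changed by 0.87 (edgeR adjusted p = 0.00289). The strand setting of the authors' counting is not given in the sources used here, so reads of PSMB9 and of these genes cannot be told apart.

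PSMB10 (also MECL-1, the counterpart of PSMB7) had 11.4, 16.3 and 15.5 CPM in the controls and 8.25, 7.58 and 10.9 CPM in siMCT4. The groups did not overlap, but the lowest control and siMCT4 library 3 were 11.4 and 10.9 CPM. Its log2 change was -0.69 ± 0.186 (SE; edgeR adjusted p = 0.0206). PSMB10 has the highest GC content of the members, 60.1%, and with a correction for GC content the change was -0.43 (edgeR adjusted p = 0.0631). With siMCT4 library 3 alone it was -0.39 (edgeR adjusted p = 0.229), and over the 18 alternatives the adjusted p ran from 0.00136 to 0.229.

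PSMB8 (also LMP7, the counterpart of PSMB5) had 101, 114 and 110.4 CPM in the controls and 119, 127 and 96.0 CPM in siMCT4. Libraries 1 and 2 lay above the controls and library 3 below them. The log2 change was 0.07 ± 0.105 (SE; edgeR adjusted p = 0.622). Without library 3 it was 0.21 and called (edgeR adjusted p = 0.0215), and with library 3 alone -0.16.

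Of the catalytic subunits that these replace, PSMB5 (chymotrypsin-like activity) was called higher. It had 45.7, 48.9 and 55.0 CPM in the controls and 75.9, 73.4 and 53.7 CPM in siMCT4, a log2 change of 0.44 ± 0.137 (SE; edgeR adjusted p = 0.0368). Library 3 lay within the control range, and with it alone the change was 0.12 (edgeR adjusted p = 0.43). PSMB6 (caspase-like activity) had 29.8, 29.9 and 35.0 CPM in the controls and 35.2, 34.4 and 24.9 CPM in siMCT4. Its groups overlapped, and library 3 was the lowest of all 6 (edgeR adjusted p = 0.992). PSMB7 (trypsin-like activity) had 87.1, 90.3 and 92.6 CPM in the controls and 111, 109 and 89.0 CPM in siMCT4. Here libraries 1 and 2 lay above the controls and library 3 among them, and the log2 change of 0.19 was not called (edgeR adjusted p = 0.114), but without library 3 it was 0.31 (edgeR adjusted p = 0.000587).

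**Figure D3:**
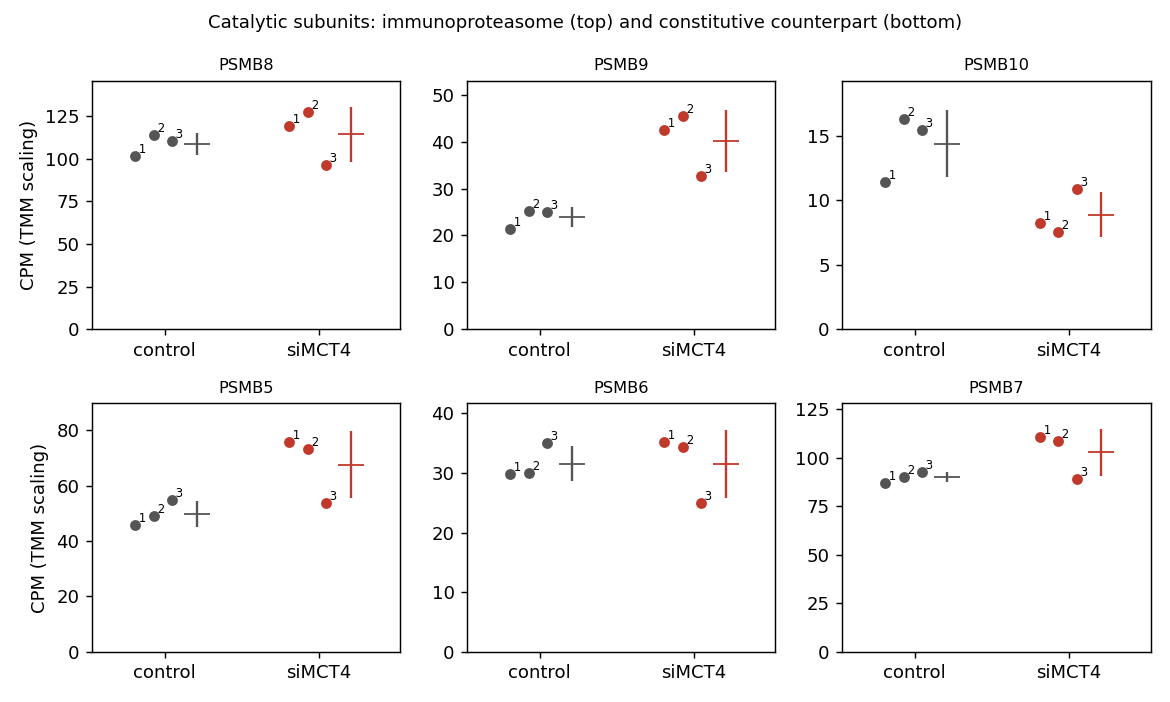
CPM (TMM-scaled, linear axes from 0) of the immunoproteasome subunits (upper row) and their constitutive counterparts (lower row) in the 3 control and 3 siMCT4 libraries, numbered by library. Crosses give the mean and SD (n = 3); PSMB9 and PSMB10 separate the groups in opposite directions, and siMCT4 library 3 falls to or below the control range in PSMB5, PSMB6 and PSMB7.

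Within a library, the FPKM of an immunoproteasome subunit divided by that of its counterpart is free of scaling between libraries. The PSMB9 to PSMB6 ratio was 0.312, 0.365 and 0.310 in the controls and 0.523, 0.572 and 0.570 in siMCT4, with means of 0.329 ± 0.0312 and 0.555 ± 0.0278 (SD, n = 3). The PSMB8 to PSMB5 ratio was 0.987, 1.04 and 0.894 in the controls and 0.699, 0.772 and 0.796 in siMCT4, or 0.973 ± 0.0725 and 0.756 ± 0.0507 (SD, n = 3). The PSMB10 to PSMB7 ratio was 0.144, 0.198 and 0.183 in the controls and 0.0814, 0.0763 and 0.134 in siMCT4, or 0.175 ± 0.0283 and 0.0972 ± 0.0318 (SD, n = 3). The first ratio was higher and the other two lower in every siMCT4 library than in every control. Library 3 was level with libraries 1 and 2 for PSMB9 to PSMB6 and PSMB8 to PSMB5, and closest to the controls for PSMB10 to PSMB7. These ratios are a description, with no test. Their size rests on the gene lengths behind the deposited FPKM. They do not remove a shift tied to GC content, which is 60.1% in PSMB10 and 49.9% in PSMB7. Nor do they remove reads that PSMB9 may share with TAP1. Whether either has a part in the ratios was not tested.

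**Figure D4:**
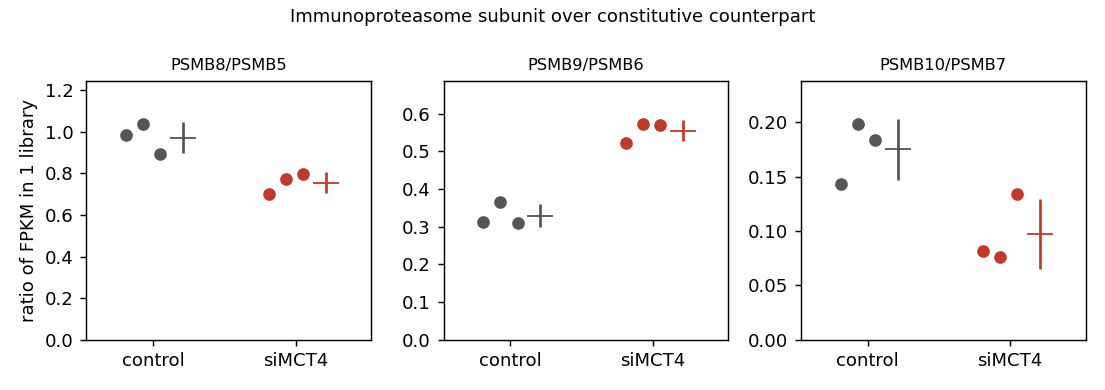
Ratio of FPKM within each library (vertical axes from 0) for the immunoproteasome subunit over its constitutive counterpart, 3 control and 3 siMCT4 libraries, with the mean and SD as crosses. The PSMB9 to PSMB6 ratio goes from a mean of 0.329 to 0.555, and the other pairs go from 0.973 to 0.756 and from 0.175 to 0.0972.

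In the constitutive core more genes rose than fell, and most were not called. PSMA3, PSMA4, PSMA5, PSMB2 and PSMB5 were called higher, PSMA7 lower and 8 were not called, with a median log2 change of 0.18. The 5 higher of 14 are 35.7%, against 20.6% of all tested genes, and the 1 lower is 7.14%, against 20.8%. Without siMCT4 library 3, 10 were higher and 1 lower (all genes 23.5% and 23.1%), and with that library alone 2 were higher and 2 lower (all genes 15% and 16.2%). Of the alpha subunits, which form the gate, 3 of 7 rose and 1 fell. Of the beta subunits, which hold the catalytic sites, 2 of 7 rose.

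PSMA5 (alpha5) had 121, 135 and 138 CPM in the controls and 208, 211 and 157 CPM in siMCT4. Its groups did not overlap, with a log2 change of 0.55 ± 0.117 (SE; edgeR adjusted p = 0.00781), the largest rise in the core. PSMA3 (alpha7) had 67.7, 73.2 and 73.2 CPM in the controls and 103, 98.8 and 83.7 CPM in siMCT4, also without overlap (0.41 ± 0.0823, edgeR adjusted p = 0.00577). The opposite-strand gene PSMA3-AS1 held 31.3% of its counts and changed by 0.01. PSMA7 (alpha4) had 82.2, 83.8 and 90.8 CPM in the controls and 64.3, 64.7 and 59.6 CPM in siMCT4. It was the one core gene that fell, by 0.45 on the log2 scale (SE 0.0599; edgeR adjusted p = 0.000889), and every siMCT4 library lay below every control. PSMA3, PSMA5 and PSMA7 were called in all 18 alternatives.

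The other calls in the core were closer to the threshold. PSMA4 changed by 0.22 (edgeR adjusted p = 0.0129) and PSMB2 by 0.39 (edgeR adjusted p = 0.0363). PSMB2 and PSMB5 overlapped between the groups and lost the call in 9 and 8 of the 18 alternatives. The core genes that were not called ran from -0.11 in PSMA2 to 0.32 in PSMB3.

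The levels of the core genes were set side by side on the FPKM scale, which divides by the gene length that the authors used. There the control means ran from 5.12 ± 0.46 (SD, n = 3) in PSMA2 to 47.4 ± 5.53 in PSMB3, a 9.25-fold range. In siMCT4 the same genes marked the ends, at 5.12 and 63.8. This range rests on the lengths behind the deposited FPKM, since before division by length PSMA2 and PSMB3 averaged 47.9 and 61.8 CPM in the controls. PSMB3, PSMB7 and PSMA7 led the controls at 47.4, 45.0 and 43.7, levels closer to each other than the SD of PSMB3. In siMCT4 PSMA7 stood sixth at 34.6. Of the immunoproteasome genes, PSMB8 at 27.9 ± 1.82 and its counterpart PSMB5 at 28.8 ± 2.54 did not differ beyond their spread in the controls. PSMB9 and PSMB10 were lower, at 6.41 ± 0.576 and 7.91 ± 1.47. Their places also rest on the lengths, since before division by length PSMB9 averaged 23.9 CPM and PSMB10 14.4 CPM in the controls. So does the likeness of PSMB8 and PSMB5, which averaged 108.6 and 49.9 CPM in the controls.

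**Figure D5:**
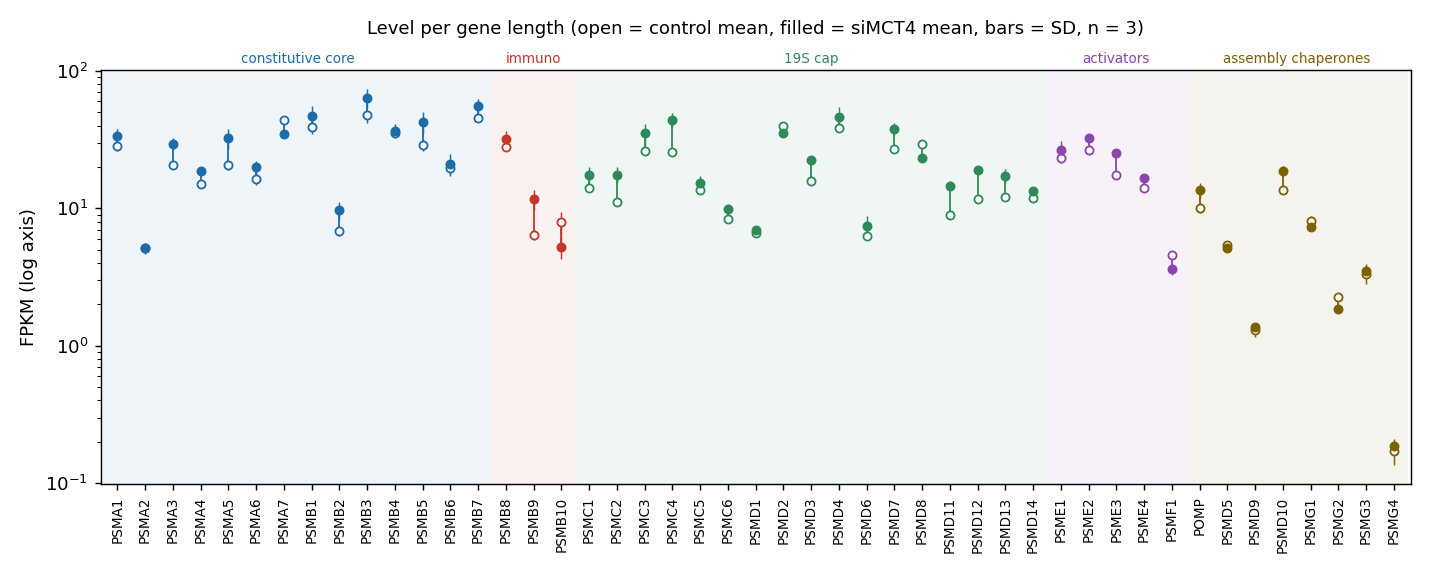
Mean deposited FPKM (log axis) of each of the 47 proteasome genes in the controls (open) and in siMCT4 (filled), joined by a line, with the SD over 3 libraries as bars. Core genes span 5.12 to 47.4 in the controls, and the assembly chaperone PSMG4 is the lowest member at 0.173.

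In the 19S cap, which recognises ubiquitin, unfolds the substrate and feeds it into the core, 7 of 17 genes were called higher (41.2%, all genes 20.6%) and 2 lower (11.8%, all genes 20.8%), and the median log2 change was 0.20. Without siMCT4 library 3 the counts were 12 and 2 (all genes 23.5% and 23.1%), and with that library alone 6 and 2 (all genes 15% and 16.2%). The ATPases of the unfolding ring, PSMC1 to PSMC6, gave 2 rises with all libraries and 6 without library 3. The 11 non-ATPase subunits gave 5 rises and 2 falls.

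PSMC4 (Rpt3, an ATPase) had 68.4, 74.3 and 77.4 CPM in the controls and 116, 129 and 102 CPM in siMCT4. Its log2 change of 0.66 ± 0.0912 (SE; edgeR adjusted p = 0.00104) was the largest rise in the cap. PSMD11 (Rpn6) and PSMD12 (Rpn5) are structural subunits of the lid, which removes ubiquitin chains. PSMD11 had 71.9, 69.9 and 71.9 CPM in the controls and 109.7, 114 and 98.6 CPM in siMCT4 (0.59 ± 0.0619, edgeR adjusted p = 0.000261). PSMD12 had 69.5, 70.1 and 69.7 CPM in the controls and 106, 97.2 and 111 CPM in siMCT4 (0.59 ± 0.0579, edgeR adjusted p = 0.0002). In PSMD12, unlike most members, library 3 was the highest of the siMCT4 libraries. The groups did not overlap in these 3 genes, and each was called in all 18 alternatives.

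The other rises in the cap ran from 0.37 in PSMD7 (Rpn8, the partner of the deubiquitinase PSMD14) to 0.54 in PSMC2 (Rpt1), with PSMD3 and PSMD13 between them. PSMC2 overlaps PMPCB on its own strand, which held 39.6% of its counts and changed by 0.24, and DNAJC2 on the other, which held 29.5% and changed by 0.02. PSMD14 itself, which cuts ubiquitin chains from substrates, changed by 0.06 (edgeR adjusted p = 0.528), and the ubiquitin receptor PSMD4 by 0.14 (edgeR adjusted p = 0.451).

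Both falls in the cap kept every siMCT4 library below every control. PSMD8 (Rpn12, a lid subunit) had 141, 138 and 146 CPM in the controls and 110.3, 102 and 97.9 CPM in siMCT4, a log2 change of -0.46 ± 0.0571 (SE; edgeR adjusted p = 0.000623), called in all 18 alternatives. PSMD2 (Rpn1, a base subunit that docks ubiquitin shuttle proteins) had 205, 233 and 219.8 CPM in the controls and 186, 193 and 167 CPM in siMCT4, with a change of -0.27 ± 0.0700 (SE; edgeR adjusted p = 0.0193). Its call was lost in 7 alternatives. PSMD6 (Rpn7), named after its values were seen, went against library 3's pattern, with log2 ratios to the control mean of -0.02, -0.07 and 0.41 in siMCT4 libraries 1, 2 and 3, and was not called (edgeR adjusted p = 0.46).

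Among the activators, the nuclear PSME3 rose and the interferon-inducible pair PSME1 and PSME2 did not pass the test. PSME3 (PA28 gamma) had 99.4, 104 and 95.6 CPM in the controls and 135, 139 and 133 CPM in siMCT4. The libraries of each group lay close together, library 3 included, with a log2 change of 0.45 ± 0.0485 (SE; edgeR adjusted p = 0.00032). BECN1, on the opposite strand, held 61.2% of its counts and changed by 0.28. PSME4 (PA200, which caps cores that degrade histones) had 169, 160.5 and 161 CPM in the controls and 180.2, 177 and 181 CPM in siMCT4. That small separation, 0.13 ± 0.0413, was called (edgeR adjusted p = 0.0345) but not with the GC correction (edgeR adjusted p = 0.208).

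PSME1 and PSME2 build the PA28 alpha-beta ring, which opens cores without ATP and is linked to antigen presentation, and their genes lie 4394 bases apart on chromosome 14. PSME1 had 42.7, 45.8 and 51.0 CPM in the controls and 53.3, 53.6 and 39.6 CPM in siMCT4 (log2 change 0.07, edgeR adjusted p = 0.695). PSME2 had 99.4, 103 and 117 CPM in the controls and 127, 125 and 112 CPM in siMCT4 (log2 change 0.19, edgeR adjusted p = 0.0954). Library 3 lay below the controls in PSME1 and among them in PSME2, and without it both were called, at 0.23 (edgeR adjusted p = 0.0405) and 0.26 (edgeR adjusted p = 0.0144). PSMF1 (PI31), which inhibits the core in the test tube, fell by 0.46 on the log2 scale (SE 0.0788; edgeR adjusted p = 0.003). It had 55.6, 53.7 and 50.3 CPM in the controls and 36.7, 36.8 and 42.8 CPM in siMCT4, without overlap. As a class, with the inhibitor PSMF1 counted in, the activators gave 2 rises and 1 fall of 5 (median log2 change 0.13). The fall was PSMF1. Of all genes, 20.6% rose and 20.8% fell. The counts were 4 and 1 without library 3 (all genes 23.5% and 23.1%), and 1 and 1 with library 3 alone (all genes 15% and 16.2%).

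Of the 8 assembly chaperones, 2 were called higher (25.0%) and 1 lower (12.5%), with a median log2 change of -0.03. The share called higher is near the 20.6% of all tested genes, and that called lower compares with 20.8%. The counts were also 2 and 1 without library 3 (all genes 23.5% and 23.1%), and 1 and 1 with it alone (all genes 15% and 16.2%). POMP, which matures the core and is destroyed as its first substrate, had 52.6, 52.5 and 61.4 CPM in the controls and 72.4, 76.6 and 59.8 CPM in siMCT4. Its change of 0.33 ± 0.106 (SE; edgeR adjusted p = 0.0425) came with overlapping groups and was lost in 8 alternatives. PSMD10 (gankyrin), which helps to build the ATPase base, rose by 0.36 (edgeR adjusted p = 0.00415), while the other base chaperones PSMD5 and PSMD9 changed by -0.16 and -0.04 and were not called.

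PSMG1 and PSMG2 pair to place the alpha subunits. PSMG2 had 29.9, 33.0 and 31.5 CPM in the controls and 23.9, 23.9 and 23.9 CPM in siMCT4. It fell by 0.40 on the log2 scale (SE 0.0638; edgeR adjusted p = 0.00211), and SPIRE1, which overlaps it on the opposite strand with 954% of its counts, changed by -0.60. Its partner PSMG1 had 17.6, 21.0 and 19.5 CPM in the controls and 15.9, 16.8 and 16.0 CPM in siMCT4, below the controls in every library and just outside the threshold (-0.25, edgeR adjusted p = 0.0542). PSMG3 had 6.22, 7.29 and 8.38 CPM in the controls and 7.75, 7.55 and 6.22 CPM in siMCT4 (edgeR adjusted p = 0.918), and PSMG4 had 2.37, 1.52 and 2.25 CPM in the controls and 1.85, 2.09 and 2.14 CPM in siMCT4 (edgeR adjusted p = 0.966). The groups overlapped in both, and the sign of their change varied with the scaling. SLC22A23, opposite PSMG4, held 333% of its counts.

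Sharing of reads between genes could touch, among others, the 9 members with an overlapping gene that holds at least 20% of their counts. Beside the genes named above, these are PSMC1 with NRDE2, PSMC5 with FTSJ3 and PSME2 with RNF31. Under that cut, an unnamed gene on the member's own strand held 17.2% of the counts of PSMA6, 16.9% of PSMB10 and 11.8% of PSMA2. The one at PSMB10 changed by 0.17 (edgeR adjusted p = 0.51). The 22 listed pseudogenes of the family took little: 21 held under 2% of the counts of their parent gene, and the highest share was 5.71% for PSMC1P1.

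The promoter windows of the family were read against its changes. RefSeq gave a window for 41 of the 47 members, and PSMA7, PSMB1, PSMB6, PSMB7, PSMD4 and PSMG3 had none. The ISRE-like letters occurred in 7 of 41 members (17.1%) and in 4.38% of 27305 genes with a window. The 7 were PSMA4, PSMB4, PSMB8, PSMB10, PSME1, PSME2 and PSMG4, of which 1 was called higher, 1 lower and 5 were not called. The GAS-like letters occurred in 7 members (17.1%, against 9.38% of genes): 4 higher, PSMB5, PSMC4, PSMD3 and PSME3, 1 lower, PSMD2, and 2 not called, PSMA2 and PSMB8. The antioxidant-response-like letters occurred in 15 members (36.6%, against 16.1% of genes), 6 of them higher, 1 lower and 8 not called. PSMB9 has neither interferon-type pattern in its own window, which says only that these letters are not there, and the pair of ISRE-like matches shown for TAP1 lies between the facing starts.

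Outside the family, a list of 8 genes linked to the immunoproteasome by interferon was read from the same fit. In it 5 were called higher (62.5%, all genes 20.6%), 2 lower (25.0%, all genes 20.8%) and 1 was not called, with a median log2 change of 0.25. TAP1 had 138, 142 and 137 CPM in the controls and 254, 261 and 270.3 CPM in siMCT4. IRF1, a factor known to drive PSMB8, PSMB9 and PSMB10, went the other way, with 45.9, 47.6 and 42.7 CPM in the controls and 31.8, 28.9 and 28.9 CPM in siMCT4 (-0.60 ± 0.0696, edgeR adjusted p = 0.000416). ERAP1, which trims the peptides the proteasome makes, changed by -0.33 (edgeR adjusted p = 0.000973). In contrast to most proteasome genes, TAP1 was highest in siMCT4 library 3.

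Of 28 other genes of the pathway, 8 were called higher (28.6%), 5 lower (17.9%) and 15 not called, with a median log2 change of 0.10. These shares are near those of all tested genes, 20.6% and 20.8%. RPS27A, which encodes ubiquitin fused to a ribosomal protein, had 119, 128 and 161 CPM in the controls and 83.0, 84.4 and 58.8 CPM in siMCT4. Every siMCT4 library lay below every control (-0.85 ± 0.163, edgeR adjusted p = 0.00483). UBA6, a ubiquitin-activating enzyme, changed by 0.36 (edgeR adjusted p = 0.00501).

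ADRM1 and NFE2L1 bear on the family and were chosen after their values were seen. ADRM1, the cap's ubiquitin receptor Rpn13, whose name the rule does not take, had 60.0, 63.3 and 66.9 CPM in the controls and 27.5, 29.3 and 56.9 CPM in siMCT4. Libraries 1 and 2 were far below the controls and library 3 near them, so that the log2 change was -0.74 with all libraries (edgeR adjusted p = 0.0569) and -1.13 without library 3 (edgeR adjusted p = 5.34e-06). Its transcript GC content is 64.2%, and with the GC correction the change was -0.20 (edgeR adjusted p = 0.246). NFE2L1, the factor that raises proteasome genes when the proteasome is short, had 311, 314 and 313 CPM in the controls and 335, 349 and 311 CPM in siMCT4 (log2 change 0.09, edgeR adjusted p = 0.217). Without library 3 it was called, at 0.15 (edgeR adjusted p = 0.0063), as with the GC correction, also at 0.15 (edgeR adjusted p = 0.0276), and it was called in 5 of 18 alternatives.

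Of the 23 members called, 12 were called the same way in all 18 alternatives, 10 higher and 2 lower (PSMA7 and PSMD8). The 10 were PSMA3, PSMA5, PSMB9, PSMC2, PSMC4, PSMD3, PSMD10, PSMD11, PSMD12 and PSME3. The other 11 lost the call in at least 1 alternative. Of these, PSMF1 and PSMG2, both lower, lost it only with limma on TPM, where 68.6% of all calls were higher. The share of all called genes that held in every alternative is not given here.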

How the data were processed

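Polyadenylated RNA of 6 libraries was sequenced as paired ends after a dUTP preparation that marks strand, per the labels' protocols. Tools listed in the submitters' processing notes are cutadapt 1.9 and HISAT2 2.2.1, with GRCh38 as the build. How reads were counted (tool, annotation release, strand) is not given in the sources used here. The file of the whole series deposited by the authors has, for 35009 genes, raw counts and, beside them, FPKM values scaled to gene length and depth, per the file headers.

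Counts were tested with edgeR 4.0.16 (R 4.3.3): TMM scaling, filterByExpr (smallest count 10, smallest total 15; 19944 genes), group as the sole factor, two-sided quasi-likelihood test, Benjamini-Hochberg adjustment over all genes tested, with calls under an adjusted p of 0.05. Each standard error was obtained as log2 change over the square root of F. The biological coefficient of variation common to all genes was 0.219. The script was tested on simulated data. Levels of different genes were compared on the FPKM scale, with CPM given where the lengths bear on the order. The 18 alternatives changed the scaling, the filter or the libraries used, added a replicate block or a loess correction on transcript GC content (GENCODE), or changed test, scaling and filter together (DESeq2 1.42.0 on 35009 genes, limma 3.58.1 on log2 values of FPKM or TPM of 20202 genes). Members, lists and alternatives were chosen with earlier results of these data known. Per-library values are given for PSMB5 to PSMB10, the activators, POMP, PSMG1 to PSMG4, and up to 3 called core and cap genes with the largest rise and the largest fall; of the other lists, for up to 2 each way. A few genes taken by this rule are left out of the text. Protein sequences were not used here.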

Additional observations from a re-analysis of the deposited data

How the results depend on the processing

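Leaving out 1 library at a time gave 13 to 30 members called higher and 4 to 7 lower. The highest count of rises came without siMCT4 library 3. Calls over all genes moved in the same way. They numbered 8260 with all libraries, 9708 without siMCT4 library 3, and 6569 to 6883 when another library was left out. Without siMCT4 library 3, 4894 genes were higher and 4814 lower, of 20861 tested. With another library left out, 3409 to 3554 were higher and 3160 to 3329 lower, of 20713 to 21022 tested. By class, the range was 3 to 10 higher in the constitutive core, 1 to 2 higher and 0 to 1 lower in the immunoproteasome, 7 to 12 higher and 1 to 2 lower in the cap, 1 to 4 higher among the activators, and 1 to 2 higher and 1 to 2 lower among the assembly chaperones. With siMCT4 library 3 alone, whose spread is then taken from the controls, 11 members were higher. In that fit 2 core genes were higher and 2 lower, 0 immunoproteasome genes were lower, and 1 activator and 1 chaperone were higher, with PSMB8 at -0.16 and PSME1 at -0.21. Without the filter on low counts, 3 core genes, 1 activator and 1 chaperone were higher. Over all genes that fit called 3640 higher, against 4116 in the main fit. With limma on log2(TPM + 1), which differs from edgeR in test and filter too, 2 members were lower in all. By class this was 0 in the immunoproteasome, 1 in the cap, 0 activators and 0 chaperones, with 11 cap genes higher. Over all genes the TPM fit called 5924 higher and 2713 lower, against 4116 and 4144 in the main fit. With limma on log2(FPKM + 1), log2(FPKM + 0.1) and quantile-normalised values, 1 cap gene was lower, and 0 immunoproteasome genes with log2(FPKM + 0.1). With the GC correction, 0 immunoproteasome genes were lower, 1 chaperone was higher and 2 were lower. Behind the counts of 0, limma gave PSMB10 an adjusted p of 0.0698 (log2(FPKM + 0.1)) and 0.097 (TPM), and with TPM PSMF1 0.0826 and PSMG2 0.0827; edgeR gave PSMB10 0.0631 with the GC correction and 0.229 with library 3 alone. For these counts the cause was not tested.

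Changes near 0 took the other sign. PSMB6 was 0.0114 with DESeq2's size factors, 0.0299 with upper quartile scaling, 0.0027 without the filter, 0.0205 with a minimum of 1 CPM and 0.0166 in DESeq2. In limma PSMB6 was 0.0903 (log2(FPKM + 1)), 0.0937 (log2(FPKM + 0.1)), 0.18 (TPM) and 0.0343 (quantile), and it was 0.0413 with the GC correction and -0.0665 to 0.17 without 1 library. PSMG3 was 0.0066 with upper quartile scaling, 0.0679, 0.0862, 0.17 and 0.0276 in the same limma fits, 0.18 with the GC correction and -0.11 to 0.0931 without 1 library. PSMG4 was 0.0171 with upper quartile scaling, 0.0089 with 1 CPM, 0.0039 in DESeq2, 0.0160, 0.0742 and 0.0862 in limma (FPKM + 1, FPKM + 0.1, TPM), 0.0858 with library 3 alone and -0.18 to 0.12 without 1 library.

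No pairing by replicate number was seen: the correlations of same-numbered deviations were -0.06, -0.0029 and -0.05. In 0 of 3 cases did a library correlate best with its own number. With 3 libraries per group, and library 3 apart in siMCT4, this cannot exclude a pairing. With the replicate block, 12 members were higher and 6 lower, where 3341 and 3580 of 19944 genes were. Among the members higher were 2 core genes, 1 activator and 1 chaperone, and PSMG4 was 0.0073. Depth limits the members least expressed: PSMG4, at 1.52 to 2.37 CPM, has the largest standard error, 0.220.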
